A study of Mus musculus with 12 samples.

Results

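Tanycytes are elongated glial cells that line the floor and lower walls of the third ventricle, with processes that reach into the arcuate nucleus (ARC) and the median eminence. They take up thyroxine (T4) from blood and cerebrospinal fluid, convert it to the active hormone triiodothyronine (T3) with a deiodinase, and pass it to neighbouring neurons, where nuclear receptors bound to T3 alter transcription. They also express homeodomain factors, the orphan receptor Gpr50 and the filament proteins of radial glia. The 9 genes described here were chosen by symbol as tanycyte or thyroid hormone handling genes: Rax, Lhx2, Gpr50, Col23a1, Vim, Nes, Dio2, Crym and Thrb. Each symbol matched 1 of the 38283 rows of the table, and all 9 passed the filter for testing, a mean of at least 1 FPKM over the libraries.

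RNA was taken from the ARC of freely fed C57BL/6 mice, males aged 8 weeks, of which 5 were wild type (WT) and 7 were homozygous (Homo) for the R299Q substitution in the γ2 subunit of AMPK, an energy-sensing kinase. The substitution was knocked into Prkag2, the gene for γ2, so every cell that expresses γ2 carried it, and the labels give no treatment for either group. The nucleus was cut from 14 µm brain sections by laser capture, and the RNA was amplified before sequencing, with 1 library a mouse. Values are in FPKM, fragments scaled to the length of the transcript and the size of the library, so levels of different genes are compared per unit of length. The comparison asks whether the tanycyte and thyroid hormone genes of the ARC differ between the genotypes, and its p-values measure the spread between mice. The substitution cannot be seen in FPKM, so genotype rests on the labels.

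The sums of FPKM lay between 1.33e+07 and 2.12e+07 a library, of which the top 10 genes took 95.9% to 98.1%. By the number of genes above 0 the libraries fell into 2 sets: 15742 to 16467 genes in WT 1, WT 2 and Homo 1 to Homo 5, and 18141 to 18635 genes in WT 3, WT 4, WT 5, Homo 6 and Homo 7. Fragment counts were not analysed here, but the step between low values, which is what a single fragment on 1 kb adds, was 0.159 to 0.319 FPKM in the first 7 libraries and 0.0854 to 0.121 FPKM in the other 5, which were deeper by this measure. The sets are unequally split between genotypes, so the difference of each of the 9 genes is also given within them. The titles of Homo 6 and Homo 7 are worded differently from those of Homo 1 to Homo 5, and no label says why.

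The markers of the captured tissue were those of ARC with its neurons, at levels that differed by library. The 7 arcuate markers summed to 1119 FPKM in WT 3, 1982 FPKM in WT 4 and 2541 FPKM in WT 5. They summed to 3747.5 FPKM in WT 1, 3644 FPKM in WT 2 and between 2868 and 4110 FPKM in Homo. All 7 were higher in mean log2 value in Homo, where 49.3% of all genes were higher. Arcuate peptide genes were highest, with a mean Npy level of 1014.5 FPKM in WT and 1471.7 FPKM in Homo (a log2 fold change of 0.60 with an adjusted limma p of 0.887 and an exact permutation p of 0.0354), and the 4 neuron markers, led by Snap25, summed to between 472 and 764 FPKM in the 12 libraries. The 9 tanycyte and thyroid genes summed to between 39.8 and 166 FPKM in WT and between 36.3 and 90.0 FPKM in Homo, so they were a small share of what was sequenced. Of the 6 ependymal markers, genes of the ciliated cells that line the ventricle above the tanycytes, Foxj1, their ciliary transcription factor, was at 0 to 7.54 FPKM and the list summed to 15.4 to 50.3 FPKM in the WT libraries and 13.8 to 46.9 FPKM in the Homo libraries. Rarres2 alone gave 11.2 to 35.9 FPKM of this sum over the 12 libraries, and Ccdc153 and Tekt4 fell under the filter of 1 FPKM. Vim, Nes, Crym, Lhx2, Thrb and Dio2 are also expressed by cells other than tanycytes. In whole tissue, fewer cells of a type and less RNA per cell cannot be told apart.

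The RefSeq promoter table for GRCm38.p6 held 7 of the 9 genes, and Rax and Crym had no entry. The 250 bases before the start are shown for Dio2, the deiodinase, and for Lhx2 and Gpr50, the pair of genes whose levels followed each other most closely over the libraries. Capitals mark matches, on either strand, to 7 motifs that were searched: TATAAA, TGACGTCA (the cyclic AMP response element), TAATTA (a homeodomain core), AGGTCA (a nuclear receptor half-site), GGGCGG (the GC box), CCAAT and CACGTG (an E-box). The Dio2 window is chr12:90739039-90739288 on the minus strand, the Lhx2 window chr2:38339031-38339280 on the plus strand and the Gpr50 window chrX:71663417-71663666 on the plus strand.
Dio2: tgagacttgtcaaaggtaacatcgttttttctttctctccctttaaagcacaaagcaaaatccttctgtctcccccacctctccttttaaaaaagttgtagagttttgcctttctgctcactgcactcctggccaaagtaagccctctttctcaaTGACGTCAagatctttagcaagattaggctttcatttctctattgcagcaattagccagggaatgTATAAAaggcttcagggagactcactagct
Lhx2: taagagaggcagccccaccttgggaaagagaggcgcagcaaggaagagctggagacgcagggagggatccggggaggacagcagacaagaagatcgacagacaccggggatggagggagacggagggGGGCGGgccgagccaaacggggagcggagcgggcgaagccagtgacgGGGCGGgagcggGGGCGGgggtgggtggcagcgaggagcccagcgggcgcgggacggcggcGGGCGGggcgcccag
Gpr50: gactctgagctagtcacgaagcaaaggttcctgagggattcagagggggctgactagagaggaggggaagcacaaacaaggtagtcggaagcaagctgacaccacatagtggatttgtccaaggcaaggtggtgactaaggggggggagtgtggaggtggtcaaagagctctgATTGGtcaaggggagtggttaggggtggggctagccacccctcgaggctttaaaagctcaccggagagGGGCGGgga

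The Dio2 window held TGACGTCA 95 bases and TATAAA 30 bases before the start, motifs found in 1.55% and 12.4% of the 32851 promoter windows of this length. The Lhx2 window held 4 copies of GGGCGG, and the Gpr50 window held 1 copy of GGGCGG and 1 of CCAAT, the latter on the opposite strand. GGGCGG occurred in 32.7% and CCAAT in 33.8% of all windows. AGGTCA was found before the start of Thrb, at 184 bases in 1 of its 2 windows, and of Col23a1, at 215 bases, and in 14.0% of all windows. TAATTA, found in 4.84% of windows, was in none of the 9 windows of the 7 genes. GC content was 41.6% in the Dio2 window, 56.8% in that of Gpr50 and 72.8% in that of Lhx2. The Dio2 window lies inside Gm26512, a noncoding gene on the opposite strand, with no exon there. The RefSeq start of Dio2 lies outside the GENCODE gene, which ends at 90738438. Exons of Gm26512 overlap those of Dio2 itself. Gm26512 reached at most 0.384 FPKM, and since strandedness was not stated, reads from the pair cannot be told apart.

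None of the 9 genes differed between genotypes past an adjusted p of 0.05 in limma with Benjamini-Hochberg adjustment over the 14017 genes tested, of which 1 gene, or 0.00713%, did. Adjusted p lay between 0.899 and 0.968 for the 9 genes. At an unadjusted limma p under 0.05, 1 member, Crym, passed, against 5.55% of all genes. Crym passed the filter of 1 FPKM through WT alone, so its p and its place among the lower members rest partly on the filter. The values of WT and Homo overlapped for all 9 members, where 0.221% of all genes had groups that did not overlap. The mean log2 value was lower in Homo for 8 of the 9 members, where 50.7% of all genes were lower, and the median log2 fold change was -0.24 over the members and -0.01 over all genes. Fold changes are on the log2(FPKM + 1) scale, so the change of low genes is understated. Exact permutation tests over all ways of assigning the genotypes to the libraries, whose smallest possible two-sided p is 0.00126, are given beside the limma results of the members and of most other genes named for their p.

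**Figure D1:**
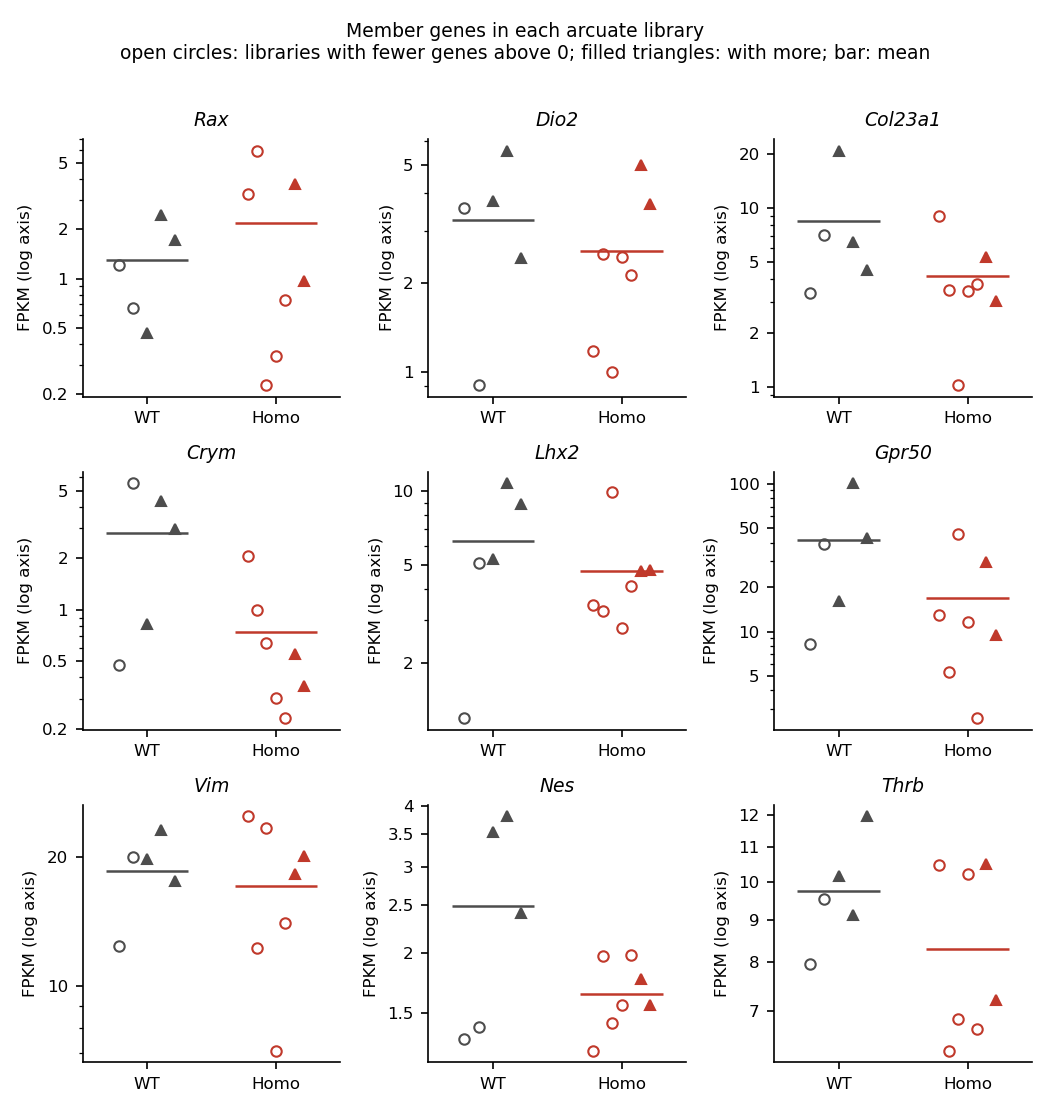
FPKM of the 9 genes on log axes, 1 point a library, in 5 WT (grey) and 7 Homo (red) mice, with open circles for the 7 libraries with fewer genes above 0, filled triangles for the 5 with more, and bars at the group means. The groups overlap in every panel, and Gpr50 has the widest range, from 2.61 to 100.3 FPKM.

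Rax, a homeodomain factor required for tanycyte identity, is on chromosome 18, and its values over the 12 libraries were among the lowest of the members. It was at 1.21, 0.662, 0.470, 2.42 and 1.73 FPKM in WT mice 1 to 5, and in Homo the lowest, median and highest values were 0.227, 0.971 and 5.99 FPKM. Homo held both the lowest and the highest libraries, so the WT range lay inside that of Homo. The mean was 1.30 ± 0.797 FPKM (SD, n = 5) in WT and 2.18 ± 2.19 FPKM (SD, n = 7) in Homo, a log2 fold change of 0.25 with a 95% interval from -0.74 to 1.23, and the exact permutation p was 0.62. The difference was 0.34 within the libraries with fewer genes and 0.35 within those with more. Rax was the 1 member with a higher mean in Homo. These levels rest on few fragments, estimated at 3 to 117 a library from the step size and the longest transcript, and the exons of the antisense gene Raxos1 overlap those of Rax. Raxos1 reached at most 0.581 FPKM, and since strandedness was not stated, reads from the pair cannot be told apart.

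Lhx2 (chr2:38339281-38369733, plus strand), a LIM homeodomain factor that acts in the same lineage, was at 1.19, 5.12, 5.32, 10.8 and 8.86 FPKM in WT mice 1 to 5. In Homo its lowest, median and highest values were 2.77, 4.10 and 9.93 FPKM. The Homo values lay within the WT range, and 1 library, Homo 3, stood above the other 6, which reached 4.78 FPKM. The means were 6.25 ± 3.71 FPKM (SD, n = 5) in WT and 4.72 ± 2.42 FPKM (SD, n = 7) in Homo, and the log2 fold change was -0.22, with a 95% interval from -1.04 to 0.60 and an exact permutation p of 0.609. The sign was not stable, since the difference was 0.52 within the 7 libraries with fewer genes and -0.64 within the 5 with more, and without WT 4 it was 0.0027.

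Gpr50 (chrX:71663667-71669257, plus strand), an orphan receptor of the melatonin receptor family and a marker of tanycytes in mice, had the highest mean of the 9 genes over all libraries and in WT, while Vim was slightly higher in Homo. It was at 8.27, 39.3, 16.2, 100.3 and 42.9 FPKM in WT mice 1 to 5. In Homo the lowest, median and highest values were 2.61, 11.6 and 45.5 FPKM. WT 4 was above every other library, and 6 of 7 Homo libraries were below the WT median, with Homo 3 above it. The mean was 41.4 ± 36.1 FPKM (SD, n = 5) in WT and 16.8 ± 15.4 FPKM (SD, n = 7) in Homo. The log2 fold change was -1.26, with a 95% interval from -2.74 to 0.22, an unadjusted limma p of 0.0879, an adjusted p of 0.905 and an exact permutation p of 0.126. The difference had the same sign within both sets of libraries, -0.77 in that with fewer genes and -1.24 in that with more, and without WT 4 it was -0.83. The highest library was 38.4 times the lowest, and the spread within genotypes, an SD of 1.29 on the log2 scale, was above that of 92.4% of the genes tested.

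Col23a1 (chr11:51289920-51583918, plus strand), a transmembrane collagen that marks tanycytes in the hypothalamus, was at 3.37, 7.07, 20.9, 6.47 and 4.53 FPKM in WT mice 1 to 5. Its lowest, median and highest values in Homo were 1.03, 3.48 and 8.97 FPKM. WT 3 was more than 2 times every other library, and 6 of 7 Homo libraries were below the WT median. The mean was 8.47 ± 7.12 FPKM (SD, n = 5) in WT and 4.15 ± 2.47 FPKM (SD, n = 7) in Homo. The log2 fold change was -0.77, with a 95% interval from -1.65 to 0.11, an adjusted limma p of 0.903 and an exact permutation p of 0.13. It was -0.39 within the libraries with fewer genes, -0.94 within those with more and -0.40 without WT 3. The same library had the highest summed level of the 4 fibroblast markers, 37.5 FPKM against 2.96 to 16.8 FPKM in the others, and of the 5 pituitary markers, 115 FPKM against 0 to 68.2 FPKM. The part of either cell type in the level of Col23a1 was not tested.

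Vim and Nes encode vimentin and nestin, intermediate filament proteins of radial glia that tanycytes keep in the adult and that endothelial cells and reactive glia also make. Vim (chr2:13573927-13582826, plus strand) was at 12.4, 20.004, 19.8, 23.1 and 17.5 FPKM in WT mice 1 to 5, and at a lowest, median and highest of 7.09, 18.2 and 24.9 FPKM in Homo. The WT range lay inside that of Homo. The means were 18.6 ± 3.96 FPKM (SD, n = 5) and 17.1 ± 6.36 FPKM (SD, n = 7), the log2 fold change was -0.17, with a 95% interval from -0.77 to 0.42, and the exact permutation p was 0.604. Within the sets the difference was -0.08 with fewer genes and -0.06 with more, and without Homo 4, the lowest library, it was 0.0049.

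Nes (chr3:87971078-87980451, plus strand) was at 1.33, 1.40, 3.54, 3.81 and 2.41 FPKM in WT mice 1 to 5. In Homo it ranged from 1.26 to 1.98 FPKM, with a median of 1.56 FPKM. All 7 Homo libraries were below the WT median, which was so for 3.64% of all genes, but WT 1 and WT 2 lay among them. The mean was 2.50 ± 1.16 FPKM (SD, n = 5) in WT and 1.65 ± 0.27 FPKM (SD, n = 7) in Homo, a log2 fold change of -0.34 with a 95% interval from -0.88 to 0.19, an adjusted limma p of 0.915 and an exact permutation p of 0.116. The 3 WT libraries above every Homo library were those with more genes above 0, and the log2 difference was 0.15 within the libraries with fewer genes and -0.66 within those with more. The gap between these 2 differences had an exact permutation p of 0.0333, 1 of 9 such tests. Genotypes were reassigned within each set, so this test assumes no genotype difference in either set. The interaction term in limma had an adjusted p of 0.876. It passed for 0 members, also at an unadjusted p of 0.05, and for 0.0428% of all genes.

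The other intermediate filament genes gave a comparison for Vim and Nes. Of 8 listed, 7 were tested and 0 passed an adjusted or an unadjusted limma p of 0.05, with 5 lower and 2 higher in mean log2 value in Homo and a median log2 fold change of -0.06. Ina, the neuronal filament internexin, had both the highest level and the smallest p. It was at 41.9 ± 6.62 FPKM (SD, n = 5) in WT and 31.9 ± 7.78 FPKM (SD, n = 7) in Homo, a log2 fold change of -0.40 with an adjusted limma p of 0.899 and an exact permutation p of 0.0593. Gfap, the astrocyte filament that some tanycytes share, was at 19.0 ± 9.82 and 17.5 ± 7.06 FPKM, close to the level of Vim.

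Dio2 (chr12:90724552-90738438, minus strand) encodes the type 2 deiodinase, which converts T4 to T3 in tanycytes and astrocytes. It was at 3.58, 0.908, 3.77, 5.58 and 2.43 FPKM in WT mice 1 to 5, and its lowest, median and highest values in Homo were 1.00, 2.45 and 4.97 FPKM. The Homo range lay inside that of WT. The means were 3.25 ± 1.73 FPKM (SD, n = 5) and 2.56 ± 1.39 FPKM (SD, n = 7), a log2 fold change of -0.24 with a 95% interval from -0.97 to 0.50, an adjusted limma p of 0.947 and an exact permutation p of 0.51. The sign changed within the libraries with more genes, where the difference was 0.15 against -0.09 within those with fewer, and in a model with library set it was 0.02. Dio2 had the smallest p of the members for the difference between sets, 0.82 higher on the log2 scale in the 5 libraries with more genes (adjusted limma p of 0.455). Dio1, the deiodinase of liver and kidney, was listed at 0 in all 12 libraries, and Dio3, which inactivates thyroid hormone, was listed at 0 in 10 of 12, with 0.0503 FPKM in WT 4 and 0.941 FPKM in Homo 7.

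Crym (chr7:120186380-120202111, minus strand) encodes mu-crystallin, a cytosolic protein that binds T3, and it had the smallest p of the 9 genes. It passed the filter of 1 FPKM through WT alone, its Homo mean being under it, so its p rests partly on the filter. It was at 0.475, 5.52, 0.825, 4.33 and 2.99 FPKM in WT mice 1 to 5. In Homo mice 1 to 7 it was at 2.07, 0.998, 0.641, 0.301, 0.232, 0.551 and 0.357 FPKM. All 7 Homo libraries were below the WT median of 2.99 FPKM, and WT 1 and WT 3 lay within the Homo range. The mean was 2.83 ± 2.18 FPKM (SD, n = 5) in WT and 0.735 ± 0.642 FPKM (SD, n = 7) in Homo, and the log2 fold change was -0.98, with an SE of 0.42 and a 95% interval from -1.87 to -0.09. The unadjusted limma p was 0.0329, the adjusted p 0.899 and the exact permutation p 0.0379, so the difference did not hold over all genes tested. It had the same sign within both sets, -0.83 with fewer genes and -1.22 with more, and the exact permutation p within sets, over 210 splits, was 0.0667. Between 2 and 118 fragments a library were estimated for Crym, so its low values rest on few fragments.

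Thrb (chr14:17660261-18038090, plus strand) encodes thyroid hormone receptor β, which mediates much of the feedback of T3 on the hypothalamus. It was at 7.95, 9.53, 10.1, 9.11 and 11.97 FPKM in WT mice 1 to 5, and in Homo its lowest, median and highest values were 6.27, 7.20 and 10.5 FPKM. The ranges overlapped, with 4 of 7 Homo libraries below every WT library and 3 within the WT range. The means were 9.74 ± 1.48 FPKM (SD, n = 5) and 8.30 ± 1.97 FPKM (SD, n = 7), a log2 fold change of -0.22 with a 95% interval from -0.65 to 0.20, an adjusted limma p of 0.919 and an exact permutation p of 0.17. Within the sets it was -0.12 with fewer genes and -0.22 with more. Thrb was the steadiest of the 9 genes, with an SD within genotypes of 0.27 on the log2 scale, above that of 5.21% of the genes tested. Thra, which encodes receptor α, was at 75.3 ± 26.9 FPKM (SD, n = 5) in WT and 64.2 ± 6.44 FPKM (SD, n = 7) in Homo and exceeded Thrb in all 12 libraries, by 4.74 to 12.1 times.

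**Figure D2:**
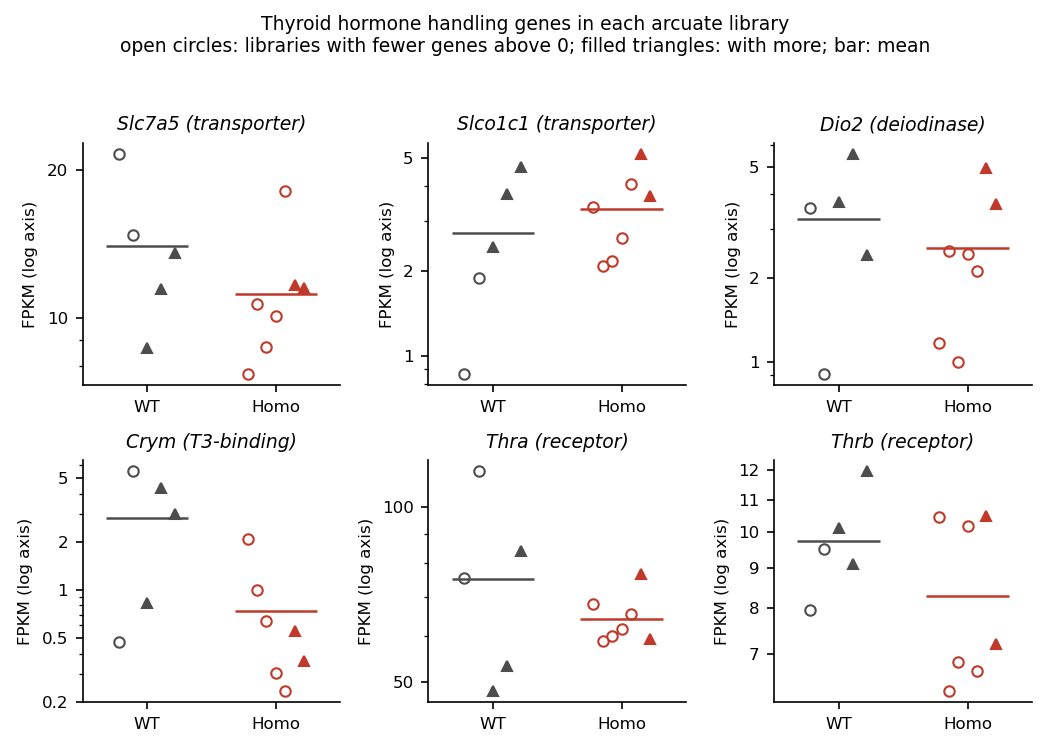
FPKM on log axes of genes along the route of thyroid hormone, from transporters to receptors, 1 point a library, in 5 WT (grey) and 7 Homo (red) mice, with open circles for the 7 libraries with fewer genes above 0, filled triangles for the 5 with more, and bars at the group means. The groups overlap in every panel, and in that of Crym all 7 Homo libraries are below the WT median of 2.99 FPKM.

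Of the 7 genes of thyroid hormone transport and deiodination described beside Dio2, 4 were tested, 0 passed an adjusted p of 0.05 and 0 an unadjusted limma p of 0.05, with 3 higher and 1 lower in mean log2 value in Homo and a median log2 fold change of 0.25. Ttr, the carrier protein of blood and cerebrospinal fluid, had the smallest p. It was at 0.21, 0.644, 0.669, 1.46 and 0.488 FPKM in WT mice 1 to 5, and its lowest, median and highest values in Homo were 0.151, 1.72 and 3.88 FPKM. The WT range lay inside that of Homo, and the means were 0.694 ± 0.466 FPKM (SD, n = 5) and 1.66 ± 1.17 FPKM (SD, n = 7). The log2 fold change was 0.57, with a 95% interval from -0.23 to 1.37, an adjusted limma p of 0.915 and an exact permutation p of 0.111. Ttr passed the filter of 1 FPKM through Homo alone.

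Slc7a5, an amino acid carrier that also moves thyroid hormones, had the highest level of these genes, at 14.03 ± 4.83 FPKM (SD, n = 5) in WT and 11.2 ± 3.38 FPKM (SD, n = 7) in Homo, a log2 fold change of -0.28 with a 95% interval from -0.80 to 0.24, whose sign turned between the sets (-0.70 with fewer genes and 0.06 with more). That of Slc7a8, a carrier of the same family, was 0.23. Slco1c1, which encodes OATP1C1, a T4 carrier of the blood-brain barrier and of tanycytes, was at 2.71 ± 1.49 FPKM (SD, n = 5) in WT and 3.31 ± 1.12 FPKM (SD, n = 7) in Homo, a log2 fold change of 0.28 with an adjusted limma p of 0.923 and an exact permutation p of 0.366. Within the sets it was 0.71 with fewer genes and 0.25 with more, with an exact permutation p of 0.0333 within sets.

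The 10 partners and coregulators of the thyroid hormone receptors were all tested, and 0 passed an adjusted p of 0.05, with 6 lower and 4 higher in mean log2 value in Homo and a median log2 fold change of -0.10. Ncor1, the corepressor that the receptors hold when no T3 is bound, had the highest mean over the libraries, at 72.1 ± 6.33 FPKM (SD, n = 5) in WT and 67.9 ± 13.02 FPKM (SD, n = 7) in Homo. Rxrb, a retinoid X receptor with which they pair, had the smallest p. It was at 7.71 ± 5.17 and 4.32 ± 1.12 FPKM, a log2 fold change of -0.52 with an adjusted limma p of 0.915 and an exact permutation p of 0.189. It was -1.32 within the libraries with fewer genes and 0.08 within those with more, and without WT 1, where Rxrb was highest, it was -0.23.

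The thyroid axis genes, peptides and receptors of the hypothalamus and pituitary, were 6, of which 4 were tested and 0 passed an adjusted p of 0.05. Trh, the releasing hormone, had the highest mean over the 12 libraries, though not in WT, where Cga led through WT 3, and was at 5.65 ± 2.71 FPKM (SD, n = 5) in WT and 6.28 ± 2.85 FPKM (SD, n = 7) in Homo. Trhr, its receptor, had the smallest p, with 4.44 ± 2.37 and 2.75 ± 1.11 FPKM, a log2 fold change of -0.48, an adjusted limma p of 0.915 and an exact permutation p of 0.153. It was -1.13 within the libraries with fewer genes, -0.06 within those with more and -0.30 without WT 2. Trhde, the enzyme with which tanycytes degrade the peptide, was at 1.58 ± 0.828 and 0.864 ± 0.585 FPKM and passed the filter of 1 FPKM through WT alone. Tshr, the receptor for thyrotropin, fell under the filter and was not tested. It was chosen after its values were seen, at 0.44, 1.59, 1.76, 1.69 and 2.16 FPKM in WT mice 1 to 5 and from 0.098 to 1.29 FPKM, with a median of 0.483 FPKM, in Homo.

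All 6 genes listed as responsive to T3 were tested, and 0 passed an adjusted p of 0.05, with 4 higher and 2 lower in mean log2 value in Homo and a median log2 fold change of 0.30. Thrsp, a lipogenic factor induced by T3 in liver, had the smallest p. It was at 8.80 ± 2.14 FPKM (SD, n = 5) in WT and 13.4 ± 3.81 FPKM (SD, n = 7) in Homo, a log2 fold change of 0.54 with an unadjusted limma p of 0.0324, an adjusted p of 0.899 and an exact permutation p of 0.0341. Within the sets the difference was 0.69 with fewer genes and 0.29 with more, with an exact permutation p of 0.0571 within sets. Nrgn, the synaptic protein neurogranin, had the highest level, at 15.4 ± 4.26 and 19.9 ± 8.57 FPKM, and a log2 fold change of 0.28. Over these 4 thyroid lists and the list of other tanycyte genes, 38 of 46 genes were tested, 21 were lower and 17 higher in mean log2 value in Homo, and an unadjusted limma p under 0.05 was reached by 0 lower genes and 1 higher gene, Thrsp, against 2.5% lower and 3.05% higher among all genes. Trhde, among the lower, passed the filter of 1 FPKM through WT alone, and Ttr, among the higher, through Homo alone.

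**Figure D3:**
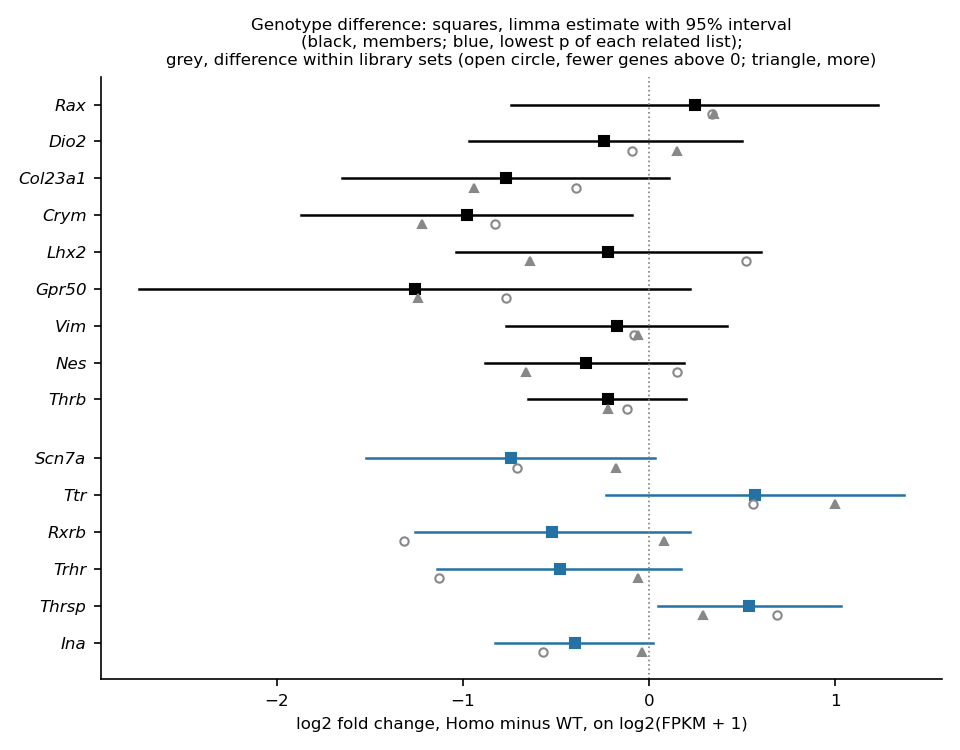
Log2 fold change, Homo minus WT, on log2(FPKM + 1), with the limma estimate (squares) and its 95% interval for the 9 genes (black) and for the gene with the smallest p of each related list (blue), and with the difference within the 7 libraries with fewer genes (open circles) and within the 5 with more (triangles). Intervals of 8 members cross 0, that of Crym ends at -0.09, and the differences within sets lie on opposite sides of 0 for Dio2, Lhx2, Nes and, among the other genes, Rxrb.

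Of 18 other genes enriched in tanycytes, 17 had a row, 15 were tested and 0 passed an adjusted p of 0.05. The mean log2 value was lower in Homo for 10 and higher for 5, with a median log2 fold change of -0.27. Trhde, 1 of the lower genes, passed the filter of 1 FPKM through WT alone. Slc1a3, the glutamate transporter that astrocytes share with tanycytes, had the highest mean over the libraries, at 66.5 ± 19.4 FPKM (SD, n = 5) in WT and 84.6 ± 24.3 FPKM (SD, n = 7) in Homo. Scn7a, a sodium channel of glia, had the smallest p, with 5.99 ± 2.47 and 3.48 ± 2.64 FPKM, a log2 fold change of -0.74, an adjusted limma p of 0.899 and an exact permutation p of 0.077. The summed level of the list was 207 to 267 FPKM in WT and 194 to 308 FPKM in Homo.

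In mean FPKM over the 12 libraries the 9 genes ranked Gpr50 (27.0), Vim (17.7), Thrb (8.90), Col23a1 (5.95), Lhx2 (5.36), Dio2 (2.85), Nes (2.00), Rax (1.81) and Crym (1.61). Neighbours in this order were compared by exact sign-flip permutation tests of their log2 differences within libraries, over 4096 sign patterns, with Benjamini-Hochberg adjustment over 8 comparisons. Vim exceeded Thrb in 11 of 12 libraries (adjusted exact p of 0.00781), and Thrb exceeded Col23a1 in 11 of 12 (adjusted exact p of 0.0254). Lhx2 exceeded Dio2 in 10 of 12 libraries, with an adjusted exact p of 0.0638. The other 5 pairs of neighbours did not differ beyond their spread, Gpr50 exceeding Vim in 6 of 12 libraries. Vim thus stood above Thrb and Thrb above Col23a1, and among the last 6 genes no neighbours differed past the test. Gpr50 was not compared with Thrb. It was below Thrb in Homo 2 (5.30 against 6.27 FPKM) and in Homo 5 (2.61 against 6.65 FPKM). The order of means was not the same in both genotypes: in WT Crym (2.83) was above Nes (2.50) and Rax (1.30) was lowest, and in Homo Vim (17.1) was above Gpr50 (16.8) and Rax (2.18) above Nes (1.65).

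Among the 36 pairs of members, 30 had a positive and 6 a negative Pearson r of log2(FPKM + 1) over the 12 libraries, with a median of 0.22. A permutation p under 0.05 was reached by 5 pairs, and by 0 after Benjamini-Hochberg adjustment. Lhx2 and Gpr50 had the highest r, 0.74 (permutation p of 0.00584, adjusted 0.21), with a Spearman rho of 0.82 (permutation p of 0.00201, adjusted 0.0724). Without the 2 libraries farthest from the median of Lhx2 the r was 0.70, and within the 7 libraries with fewer genes it was 0.59. Crym and Gpr50 had an r of 0.68 (permutation p of 0.0172, adjusted 0.31) and a rho of 0.65 (permutation p of 0.0259, adjusted 0.369), which dropped to 0.46 without the 2 libraries farthest from the median of Crym and was 0.56 in the 7 libraries. Lhx2 and Vim had an r of 0.62 and a rho of 0.62 (permutation p of 0.0338 for each, adjusted 0.339 and 0.369), 0.56 without 2 libraries and 0.58 in the 7.

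The lowest r were those of Dio2 with Crym (-0.20), Dio2 with Vim (-0.11) and Rax with Lhx2 (-0.10), each with a permutation p of at least 0.523. With the set means removed these were -0.43, -0.58 and -0.19, and within the 7 libraries with fewer genes -0.66, -0.78 and -0.34, while the 5 libraries with more are too few for a correlation of their own. Rax, Dio2, Col23a1 and Gpr50 were taken as the 4 members most restricted to tanycytes in the hypothalamus, though astrocytes also express Dio2. They gave 6 pairs with r from -0.04 to 0.29, none with a permutation p under 0.36. Of 14008 other genes, those whose values over 12 libraries were most like the mean z-score of these 4 were Caskin2 (r of 0.91), Kif5b (0.87), Ppfia1 (0.85), Metazoa_SRP (0.84) and Tyms (0.84). Metazoa_SRP was at 0 in 8 of the 12 libraries and above 0 only in libraries with more genes, and Kif5b, a kinesin motor, was at 39.5 to 63.9 FPKM in the 7 libraries with fewer genes and at 72.0 to 80.6 FPKM in the 5 with more. Within the 7 libraries with fewer genes the r was 0.86 for Caskin2, 0.88 for Kif5b, 0.68 for Ppfia1 and 0.59 for Tyms, and Metazoa_SRP was at 0 in all of them. These genes were picked for the highest r over libraries that include these 7, so these values are no separate check. How high the top r of 14008 genes would be by chance was not tested.

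**Figure D4:**
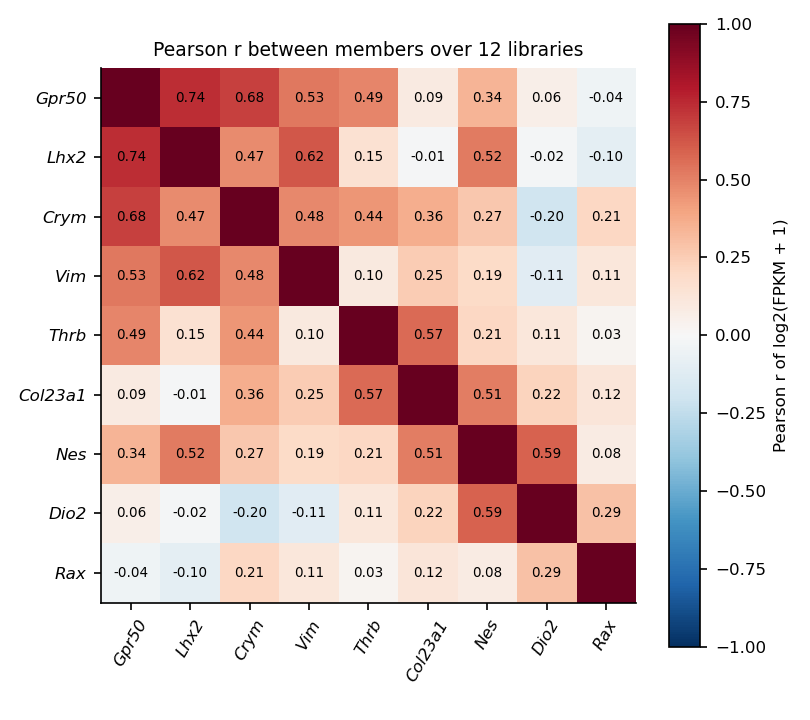
Pearson r of log2(FPKM + 1) over 12 libraries for each pair of the 9 genes, from blue (negative) to red (positive). Gpr50, Lhx2, Crym and Vim, drawn side by side, have r from 0.47 to 0.74 with each other. Pairs outside this group reach the same range, such as Col23a1 with Thrb (0.57) and Lhx2 with Nes (0.52), and 0 pairs passed after adjustment. Dio2 and Rax have r from -0.20 to 0.29 with every other member, apart from 0.59 for Dio2 with Nes.

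The library sets were compared in the same way. The mean log2 value was higher in the libraries with more genes above 0 for 8 of 9 members, against 54.1% of all genes, and 0 members passed an adjusted limma p of 0.05 for the set, against 0.178% of genes. At an unadjusted p under 0.05, 1 member, Dio2, passed, against 8.42% of genes, and all 9 members overlapped between the sets, where 1.29% of genes did not. The sign of the genotype difference was opposite in the sets for 3 members, Dio2, Lhx2 and Nes, where 50.9% of all genes had opposite signs. Rax kept a positive sign in both sets, and Crym, Gpr50, Col23a1, Vim and Thrb a negative one.

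Markers of other cells were compared in the same fit, and 0 of the markers in any list passed an adjusted limma p of 0.05. At an unadjusted limma p under 0.05, 4 were higher in Homo (Vtn, C1qa, Npy and Agrp) and 0 were lower, against 3.05% higher and 2.5% lower among all genes. Npy and Agrp were 2 of 7 arcuate markers tested, C1qa 1 of 5 microglia markers and Vtn 1 of 7 endothelial and mural markers. Agrp was at the edge, with an unadjusted limma p of 0.049955 and an exact permutation p of 0.0909. It was at 347 to 597 FPKM in the 7 libraries with fewer genes and at 181 to 276 FPKM in the 5 with more. The log2 fold change of Agrp was 0.60 over all libraries, 0.31 within those with fewer genes and 0.29 within those with more. For Npy it was 0.22 with fewer genes and 0.65 with more. The exact permutation p within sets was 0.0714 for Agrp and 0.0857 for Npy. The mean log2 value was higher in Homo for 49.3% of all genes. Astrocyte markers summed to 103 to 162 FPKM in WT and 111 to 174 FPKM in Homo, with 5 of 6 higher in mean log2 value in Homo. The highest of them was Agt and that with the smallest p Aldh1l1, whose log2 fold change was 0.58. Endothelial and mural markers, from cells that also make vimentin and nestin, summed to 35.8 to 75.1 FPKM in WT and 49.5 to 103 FPKM in Homo, with 5 of 7 tested higher. Rgs5 had the highest mean over the 12 libraries, though Vtn was above it in Homo, and Vtn had the smallest p, with a log2 fold change of 0.90, an adjusted limma p of 0.887 and an exact permutation p of 0.0568. Vtn differed by 1.76 within the libraries with fewer genes and by 0.16 within those with more. All 5 microglia markers were higher in mean log2 value, led by C1qa with 9.93 ± 3.87 FPKM (SD, n = 5) in WT and 18.6 ± 5.33 FPKM (SD, n = 7) in Homo, a log2 fold change of 0.87 with an adjusted limma p of 0.763 and an exact permutation p of 0.00884. All 3 fibroblast markers tested were lower, with Dcn the highest and Col1a2 that with the smallest p. Col1a2 had a log2 fold change of -0.62 with an exact permutation p of 0.0126. Col1a2 and Lum passed the filter of 1 FPKM only through WT, their Homo means being 0.817 and 0.836 FPKM. The count of lower markers and the p of Col1a2 therefore rest partly on the filter. Summed levels of the list were 4.67 to 37.5 FPKM among WT libraries and 2.96 to 16.8 FPKM among Homo libraries. Ependymal Rarres2, the highest and that with the smallest p of its list, had a log2 fold change of -0.33, and neuronal Tubb3 had the smallest p of its list with 0.16. The part of cell content in the levels of the 9 genes was not tested.

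Pituitary and neighbouring tissue differed by library. Gh, the growth hormone of the anterior pituitary, was at 54.5 to 64.5 FPKM in WT 3, WT 5 and Homo 7 and at most 0.139 FPKM in the other 9, and Cga, the subunit shared by the pituitary glycoprotein hormones, reached 50.2 FPKM in WT 3 and 9.37 FPKM in Homo 4. Oligodendrocyte markers summed to 64.5 to 508 FPKM in WT and 121 to 363 FPKM in Homo, and all 5 were higher in mean log2 value in Homo. Mbp was the highest of them and Mog that with the smallest p (a log2 fold change of 0.64). The markers of neighbouring nuclei, led by Oxt and with the smallest p in Avp, summed to 4.83 to 1026.1 FPKM in WT and 9.09 to 566 FPKM in Homo. WT 4, the WT library with the highest Gpr50, Lhx2, Dio2, Nes, Rax and Vim, had the lowest summed oligodendrocyte and neighbouring-nuclei markers of all 12. Its ependymal sum of 50.3 FPKM was the highest, close to those of WT 2 (47.7 FPKM) and Homo 1 (46.9 FPKM). Dynlrb2 alone gave 25.8 FPKM of the sum in WT 4. Foxj1 was at 2.47 FPKM in WT 4, below WT 2 (2.97 FPKM), Homo 1 (7.54 FPKM) and Homo 4 (3.39 FPKM).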

How the data were processed

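Gene expression in laser-captured ARC was measured by RNA sequencing in 5 WT and 7 Homo mice. The authors amplified the RNA, fragmented the cDNA to 200 bp, sequenced them and deposited FPKM values, 1 column a library, for 38283 genes. The submitters' processing notes name TopHat2 2.0.8, Cufflinks 2.2.1 and GRCm38 without their roles, and strandedness and any scaling beyond FPKM were not given in the sources used here.

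Since FPKM are no counts, log2(FPKM + 1) was fitted in R 4.3.3 by limma 3.58.1 (eBayes with a variance trend, robust) with genotype alone in the model. The 14017 genes averaging 1 FPKM or more entered, and Benjamini-Hochberg adjustment covered all of them. Single genes were also compared by exact two-sided permutation over all genotype assignments, and within library sets over 210 of them, where the smallest p is 0.00476. The sets were split at the largest gap in genes above 0, and no label names them. Correlations were tested with 100000 permutations. No library was a copy of another (Spearman rho across genes of 0.762 to 0.854). Scripts were tested on simulated data with known changes. Fragments a gene were estimated from the FPKM step, which was weakest in Homo 2 and Homo 3, and are rough upper values.

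The 9 members and the 16 other lists were chosen with earlier results of these data known, and 1 gene of the transport list is not reported here or counted in that list. Named genes are the members, the highest and the smallest-p gene of each other list, any gene of those lists past an adjusted p of 0.05 (there was none), the 5 genes most like the tanycyte group, the 3 highest and lowest member pairs, and markers of other cells. Slco1c1, Slc7a8, Dio1, Dio3, Thra, Trhde and Tshr were chosen after their values were seen. Gene positions come from GENCODE mouse release 21 (GRCm38), which held 97.5% of the tested identifiers, and promoter windows from RefSeq on GRCm38.p6. Alternatives were a pseudocount of 0.1, other filters, quantile and upper-quartile scaling, array weights, plain variances, library set as a term or a split, a replicate block and each library left out.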

Additional observations from a re-analysis of the deposited data

Results flagged for a closer look

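Lhx2 in Homo 3 stood apart from the other 6 Homo libraries: at 9.93 FPKM, its gap to the next value made up 0.597 of the range of the group, above Dixon's critical value of 0.568 for 7 samples. It was 1 of 18 groups of a gene and a genotype examined in this way, and chance alone is expected to mark about 1 in 20. Gpr50 was also highest among Homo mice in this library, at 45.5 FPKM.

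The genotype difference of Nes differed between the sets of libraries, -0.66 on the log2 scale in the 5 libraries with more genes above 0 and 0.15 in the other 7, with an exact permutation p of 0.0333 for the gap. It was 1 of 9 members compared, the p was not adjusted for that number, and the interaction term in limma had an adjusted p of 0.876.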

How the results depend on the processing

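No member passed an adjusted p of 0.05 under any of the 23 alternatives, and the signs of Rax, Col23a1, Crym, Gpr50 and Thrb were kept in all that tested them (22 for Rax and Crym, which miss the filter of 5 FPKM, and 23 for the others). The log2 fold change of Dio2 turned to 0.021 with library set in the model and to 0.15 within the libraries with more genes, that of Lhx2 to 0.52 within those with fewer genes and to 0.0027 without WT 4, that of Vim to 0.0049 without Homo 4, that of Nes to 0.15 within those with fewer genes, and that of Rxrb to 0.083 within those with more. The median over the members was -0.64 within the libraries with more genes, where the median of all genes was 0.13, and -0.09 within those with fewer, where it was -0.08, -0.48 with array weights, and -0.47 to -0.21 with single libraries left out (-0.47 without WT 1, -0.46 without WT 2). With a mean of at least 5 FPKM, 5 members were tested and 5 were lower in mean log2 value in Homo. Of the 36 pairs of members, 19 were positive within the 7 libraries with fewer genes. Over all genes 6 and 19 passed within the sets with fewer and more genes, and with single libraries left out 1 to 3, with 3 without WT 2 and 2 without Homo 4. The cause of these shifts was not tested.

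No pairing of the mice by replicate number was detected: same-numbered WT and Homo libraries deviated with correlations of -0.05 to 0.03 across genes over 5 pairs, and 0 of 5 WT libraries correlated best with the Homo library of its own number. These values cannot exclude pairing, since the pairs are few and those numbered 3, 4 and 5 lie in opposite library sets. With a replicate block 2 genes were called over all genes and 0 members.

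With single libraries left out, log2 fold changes ranged from 0.007 to 0.43 for Rax, -0.50 to -0.05 for Dio2, -0.98 to -0.40 for Col23a1, -1.27 to -0.73 for Crym, -0.60 to 0.0027 for Lhx2, -1.70 to -0.83 for Gpr50, -0.30 to 0.0049 for Vim, -0.47 to -0.21 for Nes and -0.29 to -0.15 for Thrb. Depth limits Rax and Crym most, with estimates of 3 and 2 fragments in their lowest libraries.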
